A study of Drosophila melanogaster with 60 samples.

Results

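A set of 121 genes differed in the same direction in 2 experiments on the transcription factor gene cabut (cbt) in heads of Drosophila melanogaster. The genes were taken from the 6994 genes present in both expression tables, each represented by its transcript of highest mean. A gene was a member when the difference of mean log2(value + 1) was at least 0.4 in the same direction in both comparisons, OE minus conOE and RNAi minus conRNAi. There were 60 members higher in both labelled genotypes and 61 lower in both. Before names were left out the rule gave 141 genes. Another 20 were set aside by name, among them white (w), brown (bw), Lsp2, Ilp5, ImpL2, Hex-C and genes of the Cyp, Gst and Obp families.

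RNA of whole heads was profiled by 3′ RNA-seq, in which reads come from the poly(A) ends, in 60 libraries. All flies carried Tim-gal4, which drives UAS constructs where the clock gene timeless is expressed. Flies labelled OE carried UAS-cbtFLAG beside the driver and their controls, conOE, the driver alone. Flies labelled RNAi carried a UAS construct for RNAi against cbt, without UAS-Dcr2 in their label, whereas their controls, conRNAi, carried UAS-Dcr2. Heads were taken at ZT 3, 7, 11, 15, 19 and 23 (Zeitgeber time, in hours from lights on), in 2 replicate courses of OE and conOE (12 libraries each) and 3 of RNAi and conRNAi (18 each). The labels give no age and no sex, and do not say whether courses came from separate flies, so errors measure the spread between libraries, which may be technical.

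The Gal4/UAS system places a transgene under a driver line, and the fly lines that carry transgenes are commonly marked with a functional copy of w, which encodes an ABC transporter that loads pigment precursors into the eye. Lines built separately can differ in alleles across their chromosomes as well as in the transgene. In both comparisons here the labelled flies and their controls differ in the transgenes they carry, so cbt construct, insertion and line cannot be told apart for any member. Because RNA came from whole heads, fewer cells of a type and less RNA per cell cannot be told apart either. The members were chosen by these genotype differences, the mean log2 values of both experiments, which are therefore given as descriptions without a test, and counts set beside percentages of all genes are not read as results.

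The reads counted for the targeted gene did not follow the OE label. The cbt transcript, which encodes a zinc finger factor downstream of sugar sensing, averaged 95.4 ± 25.5 normalised reads in the libraries labelled OE and 285 ± 31.4 in conOE (SD, n = 12 each), a difference of -1.61 on the log2 scale. It averaged 308 ± 55.5 in the libraries labelled RNAi and 318 ± 36.7 in conRNAi (SD, n = 18 each), a difference of -0.06. Whether the counted 3′ reads include those of the UAS-cbtFLAG transcript is not given in the sources used here, so these values do not show the total amount of cbt RNA in the libraries labelled OE. Library totals, summed over listed transcripts, were 898443 to 5684609 reads in OE (median 2695339), 727610 to 5942600 in conOE (median 3632592), 376060 to 6064762 in RNAi (median 2931306) and 757742 to 14961688 in conRNAi (median 5120614). In the OE library of course 2 at ZT23, taken as 3528744 reads, the lowest listed value counted as 7 reads. Member values there, such as 26.3, 35.1 and 43.8, lay near whole multiples of that lowest value, 8.77. A single read may thus be that value, which would make the total of this library too high. The OE minimum and median are uncertain for this reason. The 2 tables were normalised separately, so levels are compared only within an experiment. Among the genes set aside, w was higher in both labelled genotypes, by 2.42 in the libraries labelled OE and 1.0 in those labelled RNAi.

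Sharing a direction was not the common pattern over the genome. In OE against conOE, 17% of genes were higher and 14.3% lower by at least 0.4. For RNAi against conRNAi these shares were 3.82% and 6.43%. Before names were left out, 1.03% of genes were higher in both and 0.987% lower in both. Opposite directions past the same limit were found for 258 genes, 188 of them higher in OE and lower in RNAi. At any size 42.8% of genes had the same sign, and the Pearson correlation of the differences across genes was -0.17, a description only, since genes are not independent replicates.

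**Figure D1:**
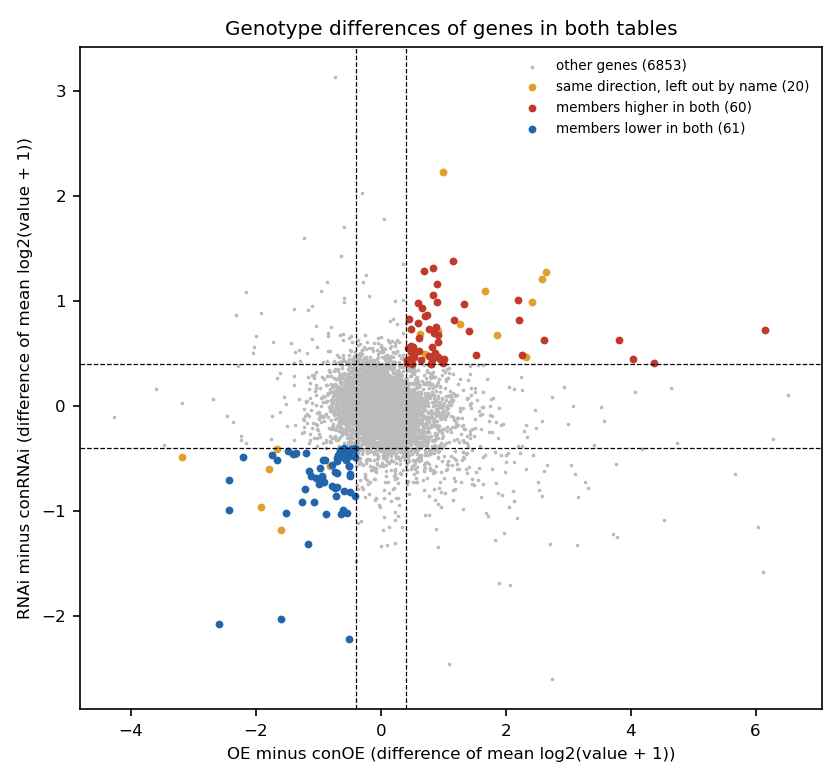
Difference of mean log2(value + 1) for each gene in both tables, OE minus conOE on the horizontal axis and RNAi minus conRNAi on the vertical axis; dashed lines mark 0.4 and -0.4. The 60 members higher in both (red) and 61 lower in both (blue) lie in the corners that the rule defines, with the 20 genes set aside by name in orange.

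The size of the members' differences is set out by experiment. The median difference of the 60 higher members was 0.79 in the libraries labelled OE and 0.56 in those labelled RNAi, and that of the 61 lower members was -0.73 and -0.63. The difference in OE was the larger of the pair in 67.8% of members, close to the 69.3% of all genes for which this held. Differences of at least 1 in size were seen in 33 members for OE (5.33% of all genes) and 14 for RNAi (0.972% of all genes), and in both for 6. Member levels spanned 8.73 to 58196 normalised reads in the first table, with a median of 74.1 against 82.3 for all genes. The median SD within a genotype and time was 0.46 and 0.409 on the log2 scale in the 2 experiments, against 0.314 and 0.298 for all genes, so members were noisier than the typical gene.

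Among the 6 members with both differences of at least 1 in size, CG17107, a protein-coding gene on chromosome arm 2L, ranked first of those higher. It ranged from 46.7 to 187 normalised reads in the libraries labelled OE (median 107) and from 31.5 to 76.0 in conOE (median 49.3). In the libraries labelled RNAi it ranged from 93.9 to 253 (median 214), and in conRNAi from 30.3 to 229 (median 69.8). The groups overlapped in each experiment, and the differences were 1.16 ± 0.159 for OE and 1.39 ± 0.13 for RNAi (SE, from a model with time as a factor). CG7367, also on 2L, was low in every group. Its values were 20.8 to 51.1 in OE (median 36.2) and 3.51 to 18.4 in conOE (median 7.18), ranges that did not touch. They were 9.08 to 33.9 in RNAi (median 15.6) and 3.68 to 36.2 in conRNAi (median 6.70), where 1 control library lay above all others.

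Of the 4 such members that were lower, the largest difference belonged to the long noncoding RNA CR32368. It had 8.77 to 118 normalised reads in the libraries labelled OE (median 22.7) and 50.4 to 509 in conOE (median 159). It had 7.31 to 150 in RNAi (median 24) and 33.4 to 283 in conRNAi (median 143). Both pairs of ranges overlapped while the medians stood far apart, with differences of -2.58 ± 0.387 and -2.07 ± 0.318. CG16743 on 2L had 54.9 to 223 in OE (median 97.9) and 176 to 419 in conOE (median 322). In RNAi it had 20.2 to 83.9 (median 43.3) and in conRNAi 99.4 to 268 (median 177), so that all 18 RNAi libraries lay below all 18 controls. Its differences were -1.59 ± 0.126 and -2.03 ± 0.132, and abo, its neighbour in gene order, was lower as well, at -1.21 and -0.79. The product of abo (abnormal oocyte) is known as a negative regulator of histone genes.

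Cpr49Ag, which encodes a cuticle protein, had 33.6 to 101 normalised reads in the libraries labelled OE (median 62.9) and 85.8 to 198 in conOE (median 134). It had 7.49 to 56.2 in RNAi (median 36.1) and 40.5 to 162 in conRNAi (median 82.8). The differences were -1.16 and -1.31, and the groups overlapped at their edges in both experiments. The last of the 6, mi, overlaps bw on the opposite strand, and bw itself was lower, at -1.91 in OE and -0.96 in RNAi, while mi was lower, at -1.51 and -1.01. Whether reads were counted by strand is not given in the sources used here, so the values of the 2 genes cannot be told apart.

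**Figure D2:**
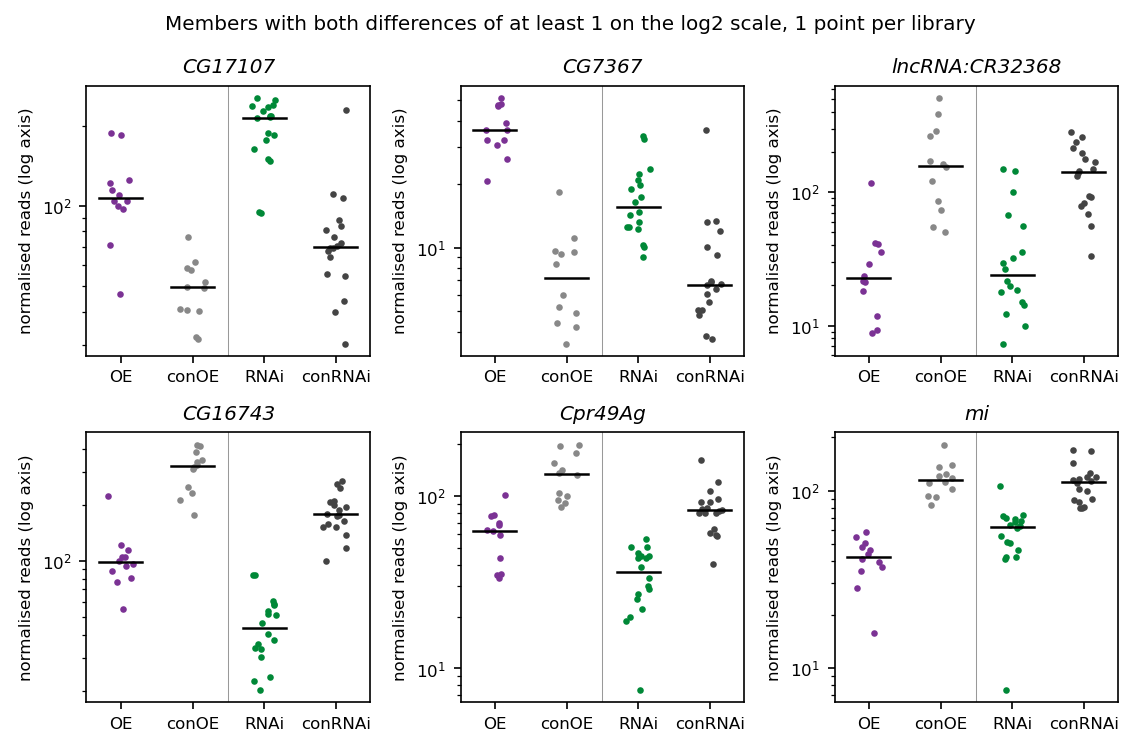
Normalised reads (log axis) of the 6 members whose differences were at least 1 on the log2 scale in both experiments, 1 point per library and a line at the median, for OE (n = 12), conOE (n = 12), RNAi (n = 18) and conRNAi (n = 18). The 2 upper left genes were higher in both labelled genotypes and the other 4 lower, and CG16743 in RNAi lies wholly below conRNAi.

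Complete separation of libraries in both experiments was rare. The ranges of labelled and control libraries did not touch for 22 members in the OE experiment (6.18% of all genes), for 7 in the RNAi experiment (0.672% of all genes) and for 3 in both (0.243% of all genes). The 3 were Glyp, Daao1 and CG1648. Glyp encodes glycogen phosphorylase, the enzyme that releases glucose units from glycogen. It had 539 to 933 normalised reads in the libraries labelled OE (median 726) and 341 to 519 in conOE (median 460). It had 656 to 1085 in RNAi (median 839) and 400 to 597 in conRNAi (median 462). Every labelled library lay above every control library, and the differences were 0.71 ± 0.0905 and 0.86 ± 0.0562, yet with the distinct transcripts of the gene summed they were 0.29 and 0.30.

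Daao1 encodes a D-amino acid oxidase. It had 161 to 302 normalised reads in the libraries labelled OE (median 213) and 344 to 622 in conOE (median 420). It had 157 to 309 in RNAi (median 247) and 315 to 524 in conRNAi (median 389). All labelled libraries were below all controls, with differences of -0.98 ± 0.0967 and -0.74 ± 0.0682. CG1648 had 588 to 830 in OE (median 743) against 928 to 1157 in conOE (median 1012). In RNAi it had 519 to 861 (median 770) against 881 to 1329 in conRNAi (median 1119), with differences of -0.51 ± 0.0613 and -0.57 ± 0.0525.

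Replicate courses and times are parts of the means by which the members were chosen, so their agreement is a description and not a check. The mean of every labelled course lay on the same side of every control course for 119 members in OE (68.0% of all genes), 108 in RNAi (26.8% of all genes) and 107 in both (19% of all genes). The sign was the same at 6 of 6 times for 101 members in OE (40.2% of all genes) and 93 in RNAi (24.1% of all genes). It was the same in both for 82, for which the share of all genes was not computed. The single member whose sign turned when a course was left out was Srg3, with a difference of -0.70 ± 0.436 in OE, which became 0.12 without the first conOE course. With each of the 10 courses left out in turn, 62 members kept their place past 0.4 in both experiments, 29 higher and 33 lower. The first 15 members in each direction, ranked by the smaller of these same differences, were all among them.

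**Figure D3:**
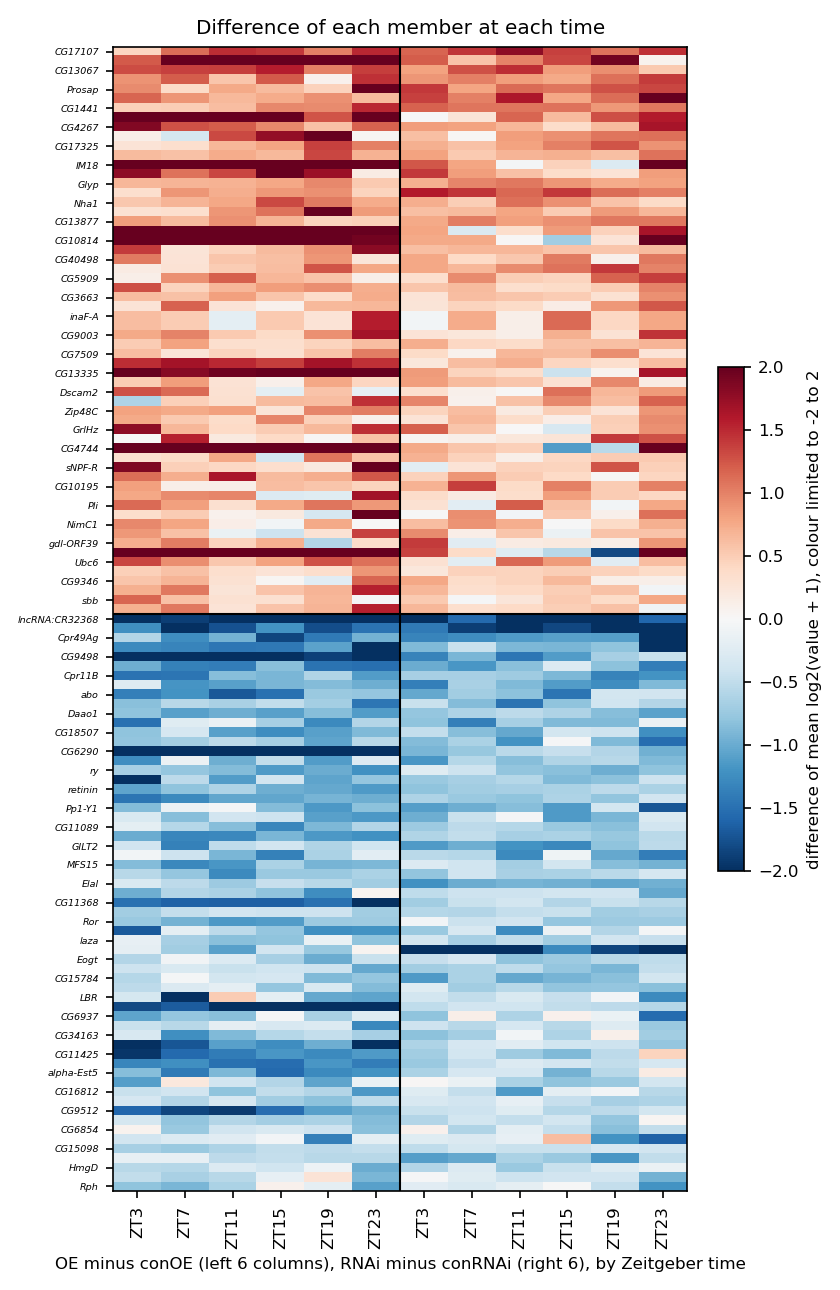
Difference of mean log2(value + 1) of each member (rows, every second one named) at each Zeitgeber time, OE minus conOE in the left 6 columns and RNAi minus conRNAi in the right 6; colours are limited to -2 and 2. Rows above the line are the 60 members higher in both and rows below it the 61 lower in both; 82 rows keep 1 sign in all 12 columns.

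Among enzymes of carbon and nitrogen metabolism the members went both ways. Got2, which encodes the mitochondrial aspartate aminotransferase, had 2414 to 4224 normalised reads in the libraries labelled OE (median 2949) and 844 to 1326 in conOE (median 1046). It had 1418 to 2826 in RNAi (median 2019) and 1079 to 1714 in conRNAi (median 1499). The OE ranges were apart and the RNAi ranges overlapped, with differences of 1.53 ± 0.0726 and 0.49 ± 0.0636. Sardh, sarcosine dehydrogenase of one-carbon metabolism, was higher by 0.83 ± 0.2 in OE and 1.31 ± 0.162 in RNAi, with overlapping ranges in both. The rosy gene ry, which encodes xanthine dehydrogenase of purine breakdown, had 30.6 to 43.1 in OE (median 38.0) and 49.6 to 109 in conOE (median 75.1). In RNAi it had 35.3 to 89.8 (median 52.4) and in conRNAi 65.2 to 161 (median 82.3), differences of -0.94 ± 0.119 and -0.68 ± 0.0972 with only the OE ranges apart.

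Further enzymes among the lower members were D2hgdh, Odc1 and Pcyt2. D2hgdh, D-2-hydroxyglutarate dehydrogenase, was lower, at -1.35 ± 0.106 in OE and -0.45 ± 0.0673 in RNAi. Odc1, ornithine decarboxylase of polyamine synthesis, was lower, at -0.41 ± 0.106 and -0.86 ± 0.0894. The RNAi difference of D2hgdh was -0.37 without the first RNAi course, and the OE difference of Odc1 was -0.23 without the first conOE course. Pcyt2, an enzyme of phosphatidylethanolamine synthesis, was lower, at -0.71 ± 0.118 and -0.85 ± 0.176, and bgm (bubblegum), a very-long-chain acyl-CoA synthetase, at -1.25 ± 0.133 and -0.91 ± 0.0923. The inositol phosphate kinase gene Ipk1 was the most uneven lower member toward the second experiment, at -0.51 ± 0.155 in OE and -2.21 ± 0.179 in RNAi. It had 18.1 to 56.5 normalised reads in OE (median 28.9) and 25 to 71.1 in conOE (median 43.6), but 4.42 to 50.3 in RNAi (median 15.6) against 42.4 to 115 in conRNAi (median 82.8).

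The wider metabolic lists showed no shared direction in these counts. Of 33 measured genes of sugar digestion and central carbon metabolism, 6 were higher and 11 lower by 0.4 in OE, and 6 higher and 3 lower in RNAi, with medians of -0.12 and 0.12. Of 16 measured genes of nucleotide, amino acid and nitrogen metabolism, 2 were higher and 7 lower in OE, and 5 higher and 3 lower in RNAi, with medians of -0.08 and 0.20. The median over all genes was 0.01 in OE and -0.01 in RNAi. Got2 was the only member in the first list, and ry and Sardh the only members in the second. None of the 20 measured genes of the lipid metabolism list was a member.

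A group of 5 genes, immune peptides and genes overlapping or near them, were far higher in the libraries labelled OE and only slightly higher in RNAi. IM18, an immune-induced molecule, had 3385 to 16540 normalised reads in OE (median 10201) and 19.7 to 531 in conOE (median 132). It had 89.9 to 1790 in RNAi (median 476) and 117 to 1782 in conRNAi (median 283). The OE ranges were apart by a wide margin and the RNAi ranges overlapped almost fully, with differences of 6.16 ± 0.422 and 0.73 ± 0.295. The Bomanin gene BomBc1, one of a family of short peptides induced through the Toll pathway, had differences of 3.81 ± 0.162 and 0.63 ± 0.173. DptB, the antibacterial peptide Diptericin B, had 4.38 ± 0.277 in OE and 0.41 ± 0.402 in RNAi, where the error was as large as the difference.

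CG4744 stood at 4.04 ± 0.403 in OE and 0.45 ± 0.281 in RNAi. It overlaps the antibacterial peptide gene AttC on the opposite strand, which differed by 4.06 in OE and 0.14 in RNAi, so the values of the pair cannot be told apart without strand. CG10814, with 1 measured gene between it and CG4744, had 2.60 ± 0.421 and 0.63 ± 0.294. In the RNAi experiment the differences of these 5 genes varied between times, but the genotype-by-time test passed for none of them. At ZT23 the RNAi libraries of courses 2 and 3 had only 376060 and 607193 reads, and the conRNAi library of course 2 had 757742. At ZT23 their RNAi difference was 2.18 for IM18, 1.65 for BomBc1, 3.33 for DptB, 2.60 for CG4744 and 2.67 for CG10814, whereas at ZT19 it was -0.28, 0.46, -1.80, -0.54 and 0.27 in the same order. For 3 of the 5 the RNAi difference depended on single courses. That of CG4744 was 0.11 without the first RNAi course and 0.87 without course 3. That of DptB was 0.17 without the second RNAi course and 0.86 without the third, and that of CG10814 0.38 without the first and 0.98 without course 3.

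Most immune genes did not share a direction between the experiments. Of 28 measured antimicrobial and recognition genes, 25 were higher and 0 lower by 0.4 in OE, while 2 were higher and 13 lower in RNAi, with medians of 2.43 and -0.32. DptB and BomBc1 were the 2 members. The Bomanin gene BomS4 was a lower member instead. It had 588 to 1031 normalised reads in OE (median 793) and 885 to 1368 in conOE (median 1149), and 489 to 816 in RNAi (median 603) against 805 to 1149 in conRNAi (median 993). Its differences were -0.50 ± 0.0892 and -0.67 ± 0.0524, while BomBc2, which it overlaps on the opposite strand, differed by 2.26 and 0.16. Pli (Pellino, of Toll signalling) was higher by 0.83 ± 0.267 and 0.44 ± 0.205, and the plasmatocyte receptor gene NimC1 by 0.43 ± 0.261 and 0.55 ± 0.156. NimC1 was low, with means of 9.88 normalised reads in OE and 7.58 in conOE, and its OE difference was 0.23 without the first conOE course. The RNAi difference of Pli was 0.33 without the first conRNAi course.

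Some members encode proteins of the cuticle or the eye surface. Cpr49Ae, next to Cpr49Ag in gene order, was lower, at -1.12 ± 0.163 in OE and -0.66 ± 0.0985 in RNAi. Cpr11B, a cuticle protein gene on the X chromosome, was lower, at -1.07 ± 0.126 and -0.91 ± 0.168. Idgf5, a secreted chitinase-like growth factor, was lower, at -0.88 ± 0.191 and -1.02 ± 0.0952. The corneal protein gene retinin was among the most abundant members, with 4537 to 12987 normalised reads in OE (median 7736) and 8940 to 21575 in conOE (median 16711). It had 5400 to 10934 in RNAi (median 7252) and 8776 to 15539 in conRNAi (median 11818), so labelled medians were the lower in both experiments while ranges overlapped. Crys, which encodes the lens protein drosocrystallin, was higher, by 1.01 ± 0.228 and 0.45 ± 0.183.

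Markers of cell types were not broadly shared. Of 8 measured cuticle and trachea genes, 4 were higher and 2 lower in OE, and 0 higher and 3 lower in RNAi. Their summed level, in normalised reads, was 4639 to 8131 in OE and 1502 to 2844 in conOE, but 845.2 to 1451 in RNAi and 1285 to 4016 in conRNAi. Of 25 listed photoreceptor genes, which mark the eye and thus the head, 24 were measured; 1 was higher and 8 lower in OE, with sums of 77189 to 98146 in OE and 90727 to 110234 in conOE. In RNAi 0 passed 0.4, with sums of 80880 to 109669 in RNAi and 87599 to 116447 in conRNAi. Of 21 fat body genes, 11 were higher and 2 lower in OE and 0 higher and 11 lower in RNAi, with Idgf5 and Yp3 as members. Their sum was 169190 to 436738 in OE and 141995 to 364634 in conOE, and 102977 to 374558 in RNAi and 145457 to 328939 in conRNAi. Of 30 neuronal genes, 2 were higher and 11 lower in OE and 4 higher and 0 lower in RNAi. Their sum was 3511 to 4117 in OE and 4366 to 5349 in conOE, ranges that did not touch, and 4492 to 5831 in RNAi and 4396 to 5120 in conRNAi. Of 18 muscle genes 3 were higher and 0 lower in OE, and 1 higher and 0 lower in RNAi. Of 9 glia genes 1 was higher and 4 lower in OE, and 1 higher and 0 lower in RNAi. Of 11 blood cell genes 6 were higher and 0 lower in OE, and 1 higher and 0 lower in RNAi, with NimC1 as the member. The part of these cell types in the members' differences was not tested.

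Neuronal and membrane genes among the members were modest in level. Prosap, the fly homologue of the postsynaptic scaffold Shank, had 52.6 to 90.1 normalised reads in the libraries labelled OE (median 77.8) and 4.22 to 57.5 in conOE (median 44.9). It had 60.4 to 150 in RNAi (median 86.4) and 19.4 to 55.4 in conRNAi (median 39.9), ranges that were apart in RNAi. The differences were 0.90 ± 0.238 and 1.17 ± 0.112. sNPF-R, the receptor of short neuropeptide F, was higher by 0.95 ± 0.26 and 0.45 ± 0.19, and the sodium channel gene NaCP60E by 0.48 ± 0.261 and 0.73 ± 0.17. For sNPF-R the OE difference was 2.40 at ZT23 and 0.20 at ZT19, and the RNAi difference was 0.22 without RNAi course 3. That of NaCP60E in OE was 0.31 without conOE course 2. The lowest conOE value of all 3 genes, 4.22, equals 1 read in the conOE library of course 2 at ZT23, which had 727610 reads. The OE library of course 2 at ZT23 may also be shallow, since its recovered total is uncertain. The muscle gene TpnC73F, a troponin C, was higher by 0.52 ± 0.141 and 0.56 ± 0.147, and the exchanger gene Nha1 by 0.85 ± 0.164 and 0.70 ± 0.174. Rph, the fly rabphilin, and Cdk5 were lower, the first at -0.59 ± 0.187 and -0.40 ± 0.15. Of these genes only Prosap and Nha1 stayed past 0.4 in both experiments without each course in turn.

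Genes tied to each sex were among the lower members. The yolk protein gene Yp3, expressed in female fat body, was lower, at -0.70 ± 0.19 in OE and -0.64 ± 0.162 in RNAi, and its RNAi difference was -0.29 without the third RNAi course. Its relatives differed by 0.41 and -0.17 for Yp1 and by -0.22 and -0.39 for Yp2. Pp1-Y1, a phosphatase gene on the Y chromosome, was lower as well, with 9.89 to 32.3 normalised reads in OE (median 20.1) and 16.9 to 53.2 in conOE (median 32.3). In RNAi it had 4.42 to 15.1 (median 10.4) and in conRNAi 15.5 to 30.6 (median 20.6), apart in all libraries, with differences of -0.64 ± 0.209 and -1.02 ± 0.142. The OE difference of Pp1-Y1 was -0.3 without the first conOE course, and no other gene of the Y chromosome was measured in both experiments. Of 13 measured sex-biased genes, 4 were higher and 5 lower in OE, and 0 higher and 4 lower in RNAi.

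The rule used no gene position, and the members were concentrated on chromosome 2. By the chromosome arms of the RefSeq gene table, 76 of 121 members (62.8%) lie on chromosome 2, where 38.3% of the genes in both tables lie. The share was 61.7% of the higher and 63.9% of the lower members, and 75% of the 20 genes set aside by name. Chromosome 3 held 24.8% of members and 43% of all genes, and the X chromosome 9.92% and 17.1%. Both arms of chromosome 2 contributed, with 35 members on 2L (28.9%, against 17.5% of all genes) and 41 on 2R (33.9%, against 20.8%).

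The share was lower among genes that passed 0.4 in 1 experiment alone. Of the 1789 genes past 0.4 in OE alone, 38.2% lie on chromosome 2, and of the 318 past 0.4 in RNAi alone 51.9%. Among genes that went in opposite directions the share was 44.2%. The share of members on chromosome 2 was 58.2% at a limit of 0.3 and 65.2% at a limit of 0.5, and 72.6% among the 62 members that kept their place without each course. These shares are descriptions and were given no test, since neighbouring genes are not independent.

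**Figure D4:**
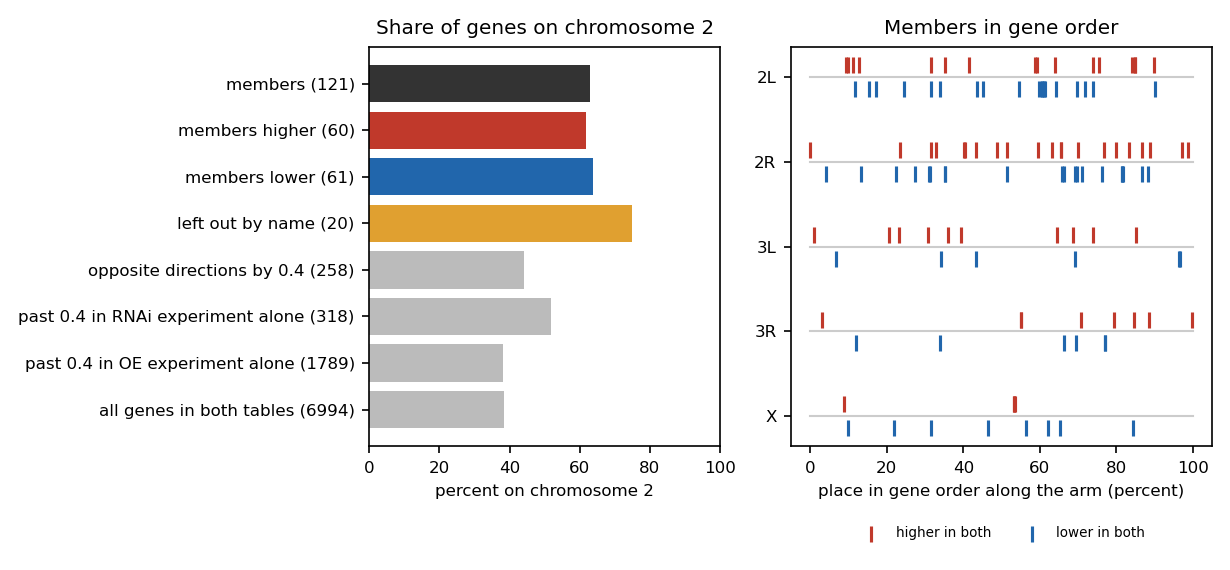
Left, percent of genes on chromosome 2 for the members, their higher and lower parts, the genes set aside by name and 4 wider classes, with the number of genes in brackets; right, each member as a tick at its place in the order of measured genes along 5 chromosome arms (0 to 100 percent), higher members above the line and lower ones below. Members hold 62.8% on chromosome 2 against 38.3% of all genes, and ticks of both directions spread along 2L and 2R.

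Along the arms the members were spread with a few close groups. When each arm was cut into 10 equal runs of measured genes, the highest share was in run 7 of 2L, with 7 members of 123 genes, 6 of them lower. There were 12 pairs of members adjacent in gene order, 10 of them in the same direction. They included CG16743 with abo, Cpr49Ae with Cpr49Ag, CG17127 with CG31869 and CG17325 with CG42305 on chromosome 2, LBR (lamin B receptor) with Loxl2 (a lysyl oxidase) on 2R, and Elal with CG11089 on 3R. CG9498 with Nepl4 and CG30466 with Cdk5 went in opposite directions. Of 211 flanking genes that were not members, 28.9% had the member's sign in both experiments, against 21.4% of all genes weighted by direction.

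Some adjacent members are not separate measurements. The values of inaF-A and inaF-C, 2 genes of a family that includes a regulator of the photoreceptor TRP channel, were within 1% of each other in all 24 and 36 libraries. Those of CG11779 and CG5835 were within 1% of each other in 24 of 24 and 33 of 36 libraries. Of 118 members found in the Ensembl annotation, 46 overlap another protein-coding gene, 40 of them one on the opposite strand. Of these, 28 members overlap a gene measured in both tables, and for 5 members that gene also passed 0.4 in the same direction in both. The 5 were mi with bw, CG17325 and CG42305 with each other, and inaF-A and inaF-C with each other, so separate values of these genes are uncertain. Of the members, 47.9% are known only by a CG number, against 31.6% of all genes.

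The daily course was not used to choose the members, so it was tested, over all genes of each table. A 24 h rhythm was tested in each genotype by limma with Benjamini-Hochberg adjustment, at an adjusted p of 0.05. It passed for 4 members in OE (1.28% of all genes passed), 4 in conOE (1.15%), 10 in RNAi (4.37%) and 8 in conRNAi (2.90%). These were 14 different members, 5 higher and 9 lower, and 7 of them passed in at least 2 genotypes. A count model, edgeR, on reads recovered from the tables called 6 members among 117 genes in OE, 4 among 101 in conOE, 12 among 339 in RNAi and 13 among 300 in conRNAi. Leaving out single courses moved the limma counts, over all genes as well as of members. In OE, 12 members among 274 genes passed without the first OE course, 3 among 35 without the second, 2 among 71 without the first conOE course and 2 among 62 without the second conOE course. In conOE, 2 among 21 passed without its first course and 1 among 23 without its second. In RNAi, 6 among 285 passed without its first course. In conRNAi, 3 among 88, 5 among 117 and 5 among 119 passed without its first course, its second and course 3, against 8 among 216 with all courses.

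CG10513, a higher member on 3R, passed in all 4 genotypes. Its mean was 82.4, 35.0, 24.1, 35.8, 92.5 and 89.8 normalised reads from ZT3 to ZT23 in OE, against 76.3, 45.0, 9.45, 10.5, 17 and 90.1 in conOE. It was 81.6, 43.6, 37.7, 28.4, 41.0 and 124 in RNAi, against 54.8, 42.9, 20.5, 14.5, 19.6 and 65.1 in conRNAi. All genotypes had their high values around dawn and low values in the middle of the series, and in OE the level was already high at ZT19. The fitted peak was at ZT22.8 in OE, 1.9 in conOE, 0.9 in RNAi and 2.6 in conRNAi. The limma adjusted p was 0.00228 in OE, 7.63e-07 in conOE, 0.000242 in RNAi and 3.18e-05 in conRNAi, and in OE it was 0.374 without the second OE course.

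CG17127, a lower member on 2L, had a similar course at a lower level. Its mean ranged between 44.3 at ZT23 and 11.1 at ZT11 in OE, between 78.1 at ZT3 and 11.3 at ZT11 in conOE, between 34.3 at ZT23 and 4.87 at ZT11 in RNAi, and between 39.9 at ZT3 and 7.95 at ZT11 in conRNAi. The limma adjusted p was 0.0527 in OE, 0.00149 in conOE, 6.64e-05 in RNAi and 0.000636 in conRNAi. The call in conOE was lost without either conOE course, and that in conRNAi without the second conRNAi course. Cpr11B peaked in the opposite part of the day, at ZT13.3 in OE, 11.4 in conOE, 10.6 in RNAi and 12.4 in conRNAi, with limma adjusted p of 0.000438, 0.00782, 0.0147 and 0.191 in that order. The call in OE held in all 10 alternatives, that in conOE was lost without the second conOE course and without libraries under 1000000 reads, and that in RNAi without the first or the second RNAi course.

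In the RNAi experiment laza, which encodes a lipid phosphate phosphatase of photoreceptors, passed in both genotypes. It was lowest at ZT15, with a mean of 56.1 normalised reads in RNAi and 91.6 in conRNAi, and its limma adjusted p was 0.000273 in RNAi and 0.00205 in conRNAi. MESR3, a higher member, peaked at ZT18.6 in RNAi and 17.1 in conRNAi, with limma adjusted p of 0.00037 and 0.00252. The control calls were less steady, since that of MESR3 was lost without the first conRNAi course and that of laza without the first or the second. bgm passed in conRNAi only, at a limma adjusted p of 0.000768 with a log2 amplitude of 0.55, against 0.43 with an amplitude of 0.21 in RNAi. The difference between its rhythms had an unadjusted p of 0.0227 and did not pass adjustment, so a loss of rhythm in RNAi is not shown.

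**Figure D5:**
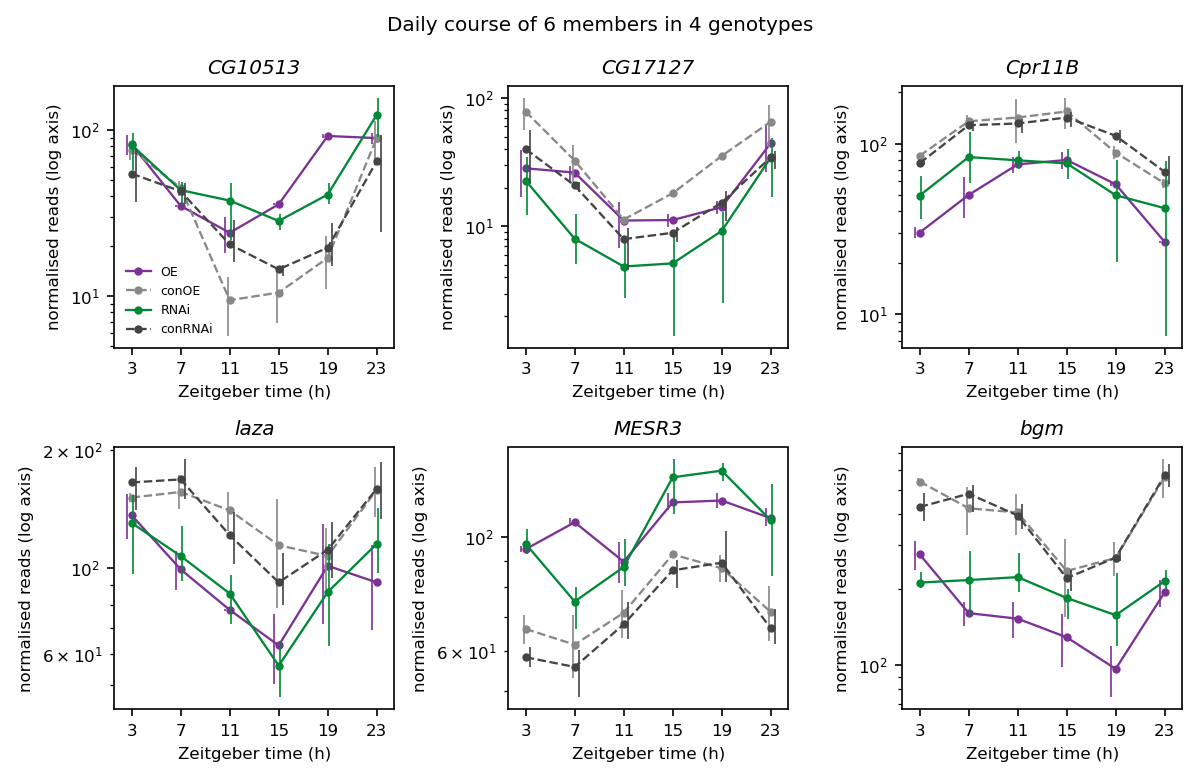
Mean normalised reads (log axis) against Zeitgeber time for 6 members in OE and conOE (2 courses each) and in RNAi and conRNAi (3 courses each), controls dashed; vertical lines, set side by side, span the lowest and highest library. CG10513 and CG17127 are high near dawn and low at ZT11 to ZT15, Cpr11B shows the opposite course, and each labelled genotype of bgm runs below its own control.

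The genotype difference of no member was shown to depend on time. In limma the genotype-by-time test called 0 members and 0 genes in either experiment, with an unadjusted p under 0.05 for 5 members in OE (4.13%, against 1.58% of all genes) and 8 in RNAi (6.61%, against 4.51%). There edgeR also called 0 members and 0 genes, with an unadjusted p under 0.05 for 3 members among 109 genes and 7 among 223. The test of a difference in 24 h rhythm called 0 members in both, with an unadjusted p under 0.05 for 7 in OE (5.79%, against 4.08% of all genes) and 14 in RNAi (11.6%, against 4.2%). There edgeR called 0, with an unadjusted p under 0.05 for 7 members among 304 genes and 11 among 290. The lowest unadjusted p of the OE test was that of CG10513, 7.44e-05, with an adjusted p of 0.19 in limma. Without the first OE course the limma test of a difference in rhythm called 1 member among 2 genes, CG14277, at an adjusted p of 0.0131.

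Values at the limit itself show how close members lie to other genes. The higher members just inside it were sbb at 0.50 in OE and 0.41 in RNAi, CG11779 at 0.81 and 0.41, and CG5835 at 0.81 and 0.40. Just outside were CG11044 at 0.69 and 0.40, cathD at 1.64 and 0.40, and Chrac-16 at 0.39 and 0.43. Among lower genes, HmgD at -0.48 and -0.40, CG7627 at -0.41 and -0.40, and Rph at -0.59 and -0.40 were just inside, and Pisd at -0.40 and -0.51, CG7872 at -0.40 and -0.46, and Coprox at -0.40 and -0.57 just outside.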

How the data were processed

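Per the labels' protocols, RNA of heads was used for 3′ RNA-seq libraries with poly(A) selection after fragmentation. The submitters' processing notes name Bowtie, TopHat and the genome build dm3. How reads were counted, normalised and filtered is not given in the sources used here. The deposited signal values, 1 per transcript and library, are read counts divided by a library size factor: all values of all 60 libraries came out as whole reads (tolerance 0.05 reads), so reads were recovered for edgeR. Values also come out whole when the value of 1 read is taken too small. This may hold for the OE library of course 2 at ZT23, whose lowest value counted as 7 reads. Its recovered reads may then be too many, so the edgeR counts of the OE experiment are uncertain.

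Groups and replicates came from the sample labels. For each gene the transcript of highest mean was kept, 7648 genes in the OE table and 7444 in the RNAi table. Differences are of mean log2(value + 1), which understates the change of low genes. Rhythm (24 h harmonic per genotype), genotype-by-time and difference in rhythm were tested with limma-trend 3.58.1 in R 4.3.3 within each table, with edgeR 4.0.16 as an alternative, and tested on simulated data. Errors of differences come from limma with time as a factor. The planned main test for counts was a count model; the values are normalised, so limma-trend was used.

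The members and the 17 gene lists were chosen with earlier results of these data known. Genes named were the first 15 in each direction by smaller difference, list members, rhythm calls, genes at the limit, adjacent members and cbt. CG1648, D2hgdh, Odc1, Ipk1, BomS4, CG10814, CG4744, Nha1, NaCP60E, Pp1-Y1, Srg3, retinin, Crys, Pli and genes overlapping a member were named after their values were seen. Symbols and chromosome arms came from a RefSeq gene table of a later assembly, overlaps and strands from Ensembl, and no coordinates were used. Other settings tried were pseudocounts of 0.5 and 10, TMM and median-ratio rescaling, summed transcripts, a mean of at least 20, libraries under 1000000 reads left out, each course left out, and limits of 0.3, 0.5 and 1.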

Additional observations from a re-analysis of the deposited data

How the results depend on the processing

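The number of members changed with the limit, and less with the pseudocount. With a pseudocount of 10 there were 38 higher and 45 lower members, and with 0.5 61 and 63. At a limit of 0.3 there were 106 higher and 131 lower, at 0.5 32 and 37, and at 1 2 and 4. Leaving out libraries under 1000000 reads gave 49 higher and 66 lower. Only 41 of the 60 higher and 52 of the 61 lower members were among these, so part of the membership rested on shallow libraries. The OE library of course 2 at ZT23 was kept in this setting, for members and rhythms alike. Its total may be overstated, so the setting may not have removed every shallow library. In the 17 settings that kept the limit of 0.4 and used no filter, 56 members (26 higher, 30 lower) were found every time. Over the named members, 1677 recomputed differences moved by less than the spread between libraries, and 3 moved further. These were CG7367 in OE, to 1.41 with a pseudocount of 10, and Glyp, to 0.29 and 0.30 with summed transcripts. None of these 3 changed sign. The OE difference of Srg3 did change sign, to 0.12 without the first conOE course.

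Rhythm counts were less steady, and the cause was not tested. Without libraries under 1000000 reads, 2 members passed in conOE (among 73 genes) and 13 in conRNAi (among 272), and edgeR gave 13 in conRNAi (among 300). With 1 course left out, the number of members was 56 to 68 higher and 57 to 75 lower. The members with a rhythm were then 2 to 12 in OE (35 to 274 of all genes) and 1 to 3 in conOE (21 to 114). They were 6 to 10 in RNAi (189 to 314) and 3 to 12 in conRNAi (88 to 266). Genotype-by-time called 0 members in both experiments. Over all genes it called 14 without the first OE course, 6 without the second conOE course and 11 without the first RNAi course. The difference in rhythm called 0 to 1 members in OE (0 to 2 of all genes) and 0 in RNAi. The conOE libraries of the first course at ZT7 and ZT15 stood apart in the mean of immune genes (9.25 and 9.19 on the log2 scale, against 8.27 to 8.54 in other conOE libraries). Leaving them out, a choice made after seeing the data, moved no named difference beyond the spread between libraries.

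Expression values did not show that replicate numbers pair libraries: same-numbered libraries correlated at -0.263 to 0.195 (median 0.0127) in the OE experiment and -0.0786 to 0.212 (median 0.062) in the RNAi experiment. With 2 courses, both OE correlations at a time are equal by construction. Read totals did follow replicate number and time. At ZT19 the course 1 library had the lowest course 1 total in OE, conOE, RNAi and conRNAi (898443, 1371528, 1085275 and 4486646 reads). Shared handling of same-numbered libraries was not tested. With a replicate block, rhythms passed for 6 members among 101 genes in OE, 4 among 90 in conOE, 14 among 425 in RNAi and 10 among 281 in conRNAi, and both interaction tests called 0. Libraries with few reads limit genes of low level: 17 members had a mean under 20 in a table.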
